A study of Homo sapiens with 10 samples.

Results

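Cholesterol synthesis was followed through 8 genes, *HMGCS1*, *MVD*, *FDFT1*, *SQLE*, *LSS*, *DHCR7*, *INSIG1* and *SREBF2*, chosen by symbol among the 59386 genes counted in each library. All 8 were found in all 10 libraries, and all 8 passed the filter on low counts, which left 16899 genes for testing. RNA came from cultured VCaP cells, which derive from a human prostate cancer, and the study asked how the transcriptome responds to loss of the chromatin remodelers SMARCA4 and SMARCA1. *SMARCA4* was knocked down with siRNA A or siRNA B and *SMARCA1* with siRNA A or siRNA C, each at 30 pmol and harvested 72 h after transfection with a lipid reagent, in 2 replicate libraries per siRNA. There were 2 control libraries of the same cell line, labelled wild type, whose siRNA, dose and transfection are not given in the sources used here. An effect of transfection and an effect of the knockdown therefore cannot be told apart in comparisons with the control.

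Cells make cholesterol from acetyl-CoA through mevalonate, farnesyl diphosphate, squalene and lanosterol, and also take it up from lipoproteins. When sterols are low, SCAP escorts the transcription factor SREBP2, the product of *SREBF2*, from the endoplasmic reticulum to the Golgi, where proteases release its active part. When sterols are high, INSIG proteins hold SCAP and SREBP2 back, and *INSIG1* is itself a target of SREBP2. Prostate cancer cells can use cholesterol for membranes and as a precursor of steroids.

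The genes stand at successive steps of this system. *HMGCS1* (chr5:43287470-43313512, minus strand, GRCh38) encodes HMG-CoA synthase and *MVD* (chr16:88651935-88663161, minus strand) mevalonate diphosphate decarboxylase. *FDFT1* (chr8:11795573-11839304, plus strand) encodes squalene synthase, *SQLE* (chr8:124998497-125022283, plus strand) squalene epoxidase and *LSS* (chr21:46188141-46228824, minus strand) lanosterol synthase.

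The remaining genes act at the end of the pathway or control it. *DHCR7* (chr11:71428193-71452868, minus strand) encodes the reductase that turns 7-dehydrocholesterol into cholesterol. *INSIG1* (chr7:155297776-155310235, plus strand) encodes the retention protein and *SREBF2* (chr22:41833079-41907307, plus strand) the transcription factor.

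The promoters of the genes that differed most between the knockdowns, *DHCR7*, *INSIG1* and *SREBF2*, are shown here because their letters can be read beside the values. Each sequence is the 250 bases before a RefSeq transcription start on GRCh38.p14, in the direction of the gene. Capitals mark the sterol regulatory element TCACNCCAC, the E-box CACGTG and the CCAAT box CCAAT, searched on both strands so that a CCAAT box on the other strand reads ATTGG.
*DHCR7*, chr11:71448394-71448643, minus strand: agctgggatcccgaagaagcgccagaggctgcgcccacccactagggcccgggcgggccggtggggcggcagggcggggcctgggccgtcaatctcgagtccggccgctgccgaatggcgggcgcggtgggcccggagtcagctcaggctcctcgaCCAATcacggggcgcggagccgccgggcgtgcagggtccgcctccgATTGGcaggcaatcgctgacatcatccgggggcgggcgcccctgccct
*INSIG1*, chr7:155297628-155297877, plus strand: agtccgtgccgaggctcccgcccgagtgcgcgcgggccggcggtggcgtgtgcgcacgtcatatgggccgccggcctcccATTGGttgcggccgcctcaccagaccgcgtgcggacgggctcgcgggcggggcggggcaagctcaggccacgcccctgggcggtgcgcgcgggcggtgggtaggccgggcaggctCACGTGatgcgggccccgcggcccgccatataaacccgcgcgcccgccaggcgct
*SREBF2*, chr22:41832855-41833104, plus strand: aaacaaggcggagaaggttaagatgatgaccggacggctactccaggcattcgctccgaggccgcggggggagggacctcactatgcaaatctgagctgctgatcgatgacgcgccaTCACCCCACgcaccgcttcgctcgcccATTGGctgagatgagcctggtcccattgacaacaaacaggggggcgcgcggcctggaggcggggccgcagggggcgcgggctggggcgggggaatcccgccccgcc

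Promoters were matched for 6 of the 8 genes, with 8 starts in all, and *FDFT1* and *SQLE* had no match. Motifs were counted in windows of 300 bases, from 250 before to 50 after each start, in which the start base is position 1. The sterol regulatory element, searched only as TCACNCCAC, was found in *SREBF2* alone, at position -133, and in 1.13% of 35116 promoters of that length. Other forms of this element were not searched. The E-box was found in *INSIG1* at position -55 and in *LSS* at position 41, and in 7.26% of all promoters. The CCAAT box was found at a start of all 6 matched genes, but not at the second listed start of *HMGCS1* or *DHCR7*. The GC box GGGCGG, which is not capitalised, was also found at a start of all 6, but not at the second of *DHCR7*. Of all promoters, 34.6% held a CCAAT box and 45% a GC box, but these shares count starts and not genes. In *DHCR7* the CCAAT boxes were at positions -94 and -48 of the start shown, and its other listed start held none of the 4 motifs. No match of one motif overlapped a match of another in these windows. A match is only a run of letters, and binding was not measured.

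Total counts per library lay between 23898545 and 34667965, and a floor of 3 counts, the most that a count of 0 leaves possible, lay at 0.0865 to 0.126 CPM (counts rescaled to one common library size). The lowest count of any of the 8 genes was 281, for *MVD*, and the other genes had at least 4232 counts in every library. The 2 libraries of each pair differed beyond counting noise, least for *SMARCA1* siRNA C (chi-square per gene 3.8) and most for *SMARCA1* siRNA A (60.6). The labels do not say whether replicates were separate cultures, so p-values measure the spread between these libraries, which may be technical. *SMARCA4* fell to 20.1 ± 5.29 CPM (SD, n = 4) in its knockdown from 242 and 268 CPM in the controls, and *SMARCA1* to 2.80 ± 0.737 CPM from 31.5 and 32.3 CPM. In *SMARCA4* knockdown *SMARCA1* was higher, at 57.4 to 83.8 CPM (log2 fold change 1.07, adjusted p = 0.001 by edgeR's quasi-likelihood test). *SMARCA4* did not pass that test in *SMARCA1* knockdown (-0.11, adjusted p = 0.495). The 10 listed prostate luminal markers summed to 8775 to 10570 CPM over the libraries. Of these, 4 were higher and 1 lower in *SMARCA4* and 2 higher and 4 lower in *SMARCA1* knockdown. These counts, and those of other cells below, stand against 22.8% of all genes higher and 22.3% lower in *SMARCA4* knockdown. In *SMARCA1* knockdown the shares were 23.8% and 23.0%. Of 8 markers of other cells, *PTPRC* and *CD3E* had at most 1 count in any library, and the 6 tested had 2 higher in *SMARCA4* and 3 higher and 1 lower in *SMARCA1* knockdown, with sums of 62.4 to 71.1 CPM in the controls and 72.9 to 117 CPM in the knockdowns. All 10 listed interferon response genes rose in both knockdowns, from a summed 148 and 154 CPM in the controls to 12520 to 34670 CPM in *SMARCA4* and 17990 to 35140 CPM in *SMARCA1* knockdown. The part of these markers and interferon genes in the results below was not tested. In bulk RNA, a change in the cells present and a change in RNA per cell cannot be told apart.

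Values below are CPM after TMM normalization, and each adjusted p is from edgeR's quasi-likelihood test with Benjamini-Hochberg adjustment over all 16899 genes, called below 0.05. Per kilobase of annotated exon, control levels were highest for *SQLE* (mean 95.1 CPM per kb), *INSIG1* (86.7 CPM per kb) and *HMGCS1* (77.8 CPM per kb). *SREBF2* (49.6 CPM per kb), *FDFT1* (40.2 CPM per kb), *DHCR7* (34.0 CPM per kb) and *LSS* (25.7 CPM per kb) followed, and *MVD* was lowest at 2.72 CPM per kb. The ranges of neighbours in this order did not overlap between the 2 control libraries. The order of group means was not the same in every group. *INSIG1* was above *SQLE* in *SMARCA4* siRNA A and in both *SMARCA1* siRNA groups. In *SMARCA1* siRNA A, *SREBF2* (38.9 CPM per kb) was below *FDFT1* (43.9 CPM per kb). Across the 10 libraries the spread was small for every gene, from 1.3 times between the lowest and highest library for *FDFT1* and *LSS* to 1.78 times for *DHCR7* and *INSIG1*.

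**Figure D1:**
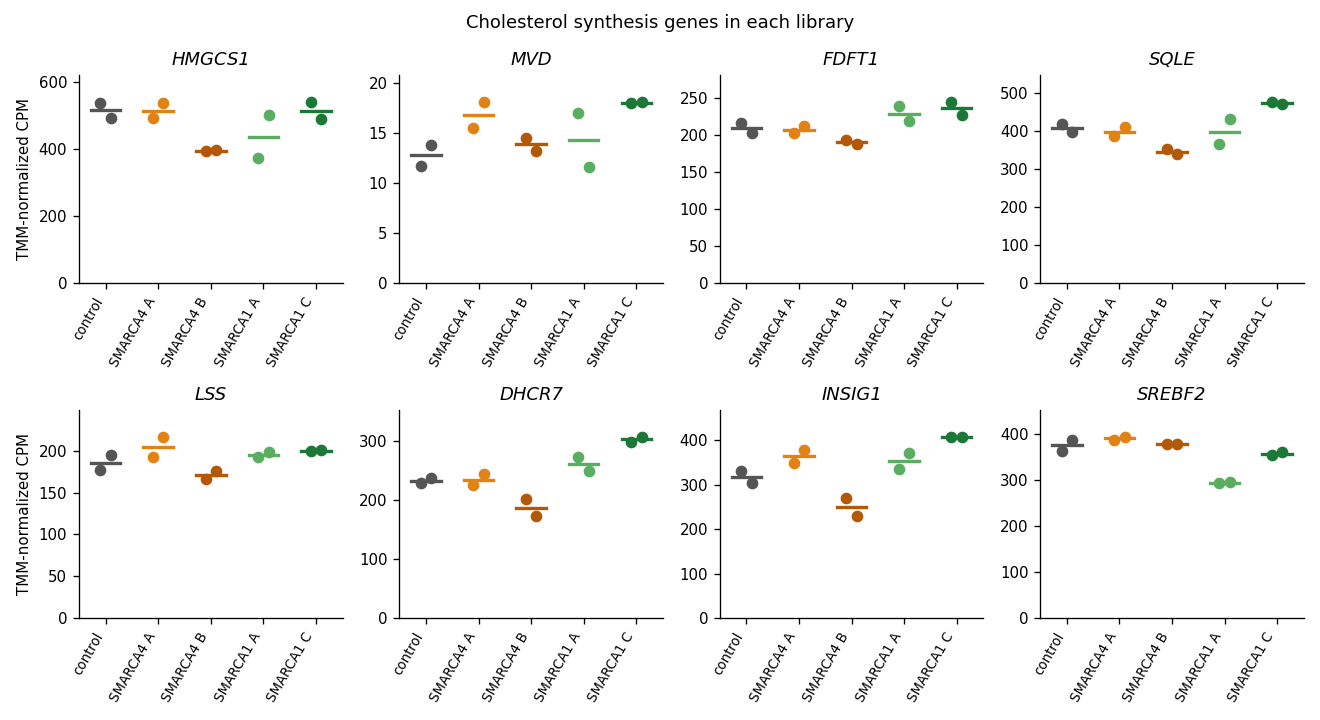
TMM-normalized CPM (vertical axes, starting at 0) of the 8 genes in each library; points are libraries, 2 per group, and lines are group means. *DHCR7* and *INSIG1* were lowest in *SMARCA4* siRNA B and highest in *SMARCA1* siRNA C, and *SREBF2* was lowest in *SMARCA1* siRNA A.

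In *SMARCA4* knockdown no change passed the test in any of the 8 genes. None of the 8 was called, while 45.1% of all genes tested were called in the same comparison, 22.8% higher and 22.3% lower. At an unadjusted p below 0.05 there was also 0 of 8, and DESeq2 called 0. The median log2 fold change of the 8 genes was -0.07, and that of all genes tested was 0.00. Ranges of the knockdown and control libraries were apart in 0 of the 8 genes, against 58.4% of all genes tested. The intervals limit how far each gene can have moved, from -0.46 to 0.08 on the log2 scale for *HMGCS1*, which had the lowest estimate (-0.19, SE 0.12, adjusted p = 0.22), and from -0.10 to 0.61 for *MVD*, which had the highest (0.26, SE 0.16, adjusted p = 0.22).

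*DHCR7*, the last of these enzymes in the pathway, was higher by a small amount in the *SMARCA1* knockdown libraries than in the controls, near the threshold of the test. Control libraries had 229 and 236 CPM of *DHCR7*, *SMARCA1* siRNA A libraries 272 and 248 CPM, and *SMARCA1* siRNA C libraries 299 and 307 CPM. All 4 knockdown libraries lay above both controls, and the log2 fold change was 0.27 (SE 0.10, adjusted p = 0.046). This was 1 called gene of 8, against 46.8% of all genes, 23.8% higher and 23.0% lower. The call was lost without either control library (adjusted p = 0.17 and 0.12) and without either *SMARCA1* siRNA C library (adjusted p = 0.092 and 0.12). It was also lost under upper quartile scaling (adjusted p = 0.078), under library totals alone (adjusted p = 0.065) and with no filter on low counts (adjusted p = 0.085). The same held with the replicate number as a block. With siRNA A alone the log2 fold change was 0.16 (adjusted p = 0.29). DESeq2 also called *DHCR7* alone.

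The regulators *INSIG1* and *SREBF2* had values on opposite sides of the control in *SMARCA1* knockdown. *INSIG1* was at 330 and 303 CPM in the controls, 335 and 371 CPM with *SMARCA1* siRNA A and 407 and 407 CPM with siRNA C. Its log2 fold change was 0.26 (SE 0.10, adjusted p = 0.059), which did not pass the test although the ranges did not overlap. It passed with a filter of at least 1 CPM in at least 2 libraries (adjusted p = 0.046), with siRNA C alone (0.36, adjusted p = 0.029) and in 6 of the 10 fits with a library left out. *SREBF2* was at 363 and 386 CPM in the controls, 292 and 296 CPM with *SMARCA1* siRNA A and 353 and 359 CPM with siRNA C. Its log2 fold change was -0.21 (SE 0.08, adjusted p = 0.056), and it passed under library totals alone (-0.24, adjusted p = 0.040), upper quartile scaling (-0.24, adjusted p = 0.043), the filter of 1 CPM (adjusted p = 0.048), siRNA A alone (-0.35, adjusted p = 0.019) and in 2 of the 10 fits with a library left out. The low values of *SREBF2* were thus those of siRNA A, the siRNA that gave the smaller estimate for *INSIG1*. Of the 8 genes, 4 had knockdown libraries wholly on one side of the controls, with *FDFT1*, *DHCR7* and *INSIG1* above and *SREBF2* below, against 58.2% of all genes tested whose ranges did not overlap.

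The other enzymes did not pass the test in *SMARCA1* knockdown. *FDFT1* was at 216 and 202 CPM in the controls and at 232 ± 11.5 CPM (SD, n = 4) in the knockdown, a log2 fold change of 0.15 (SE 0.09, adjusted p = 0.19). *SQLE* (0.09, SE 0.10), *LSS* (0.09, SE 0.09) and *HMGCS1* (-0.12, SE 0.12) had estimates nearer 0, with adjusted p of 0.47, 0.45 and 0.44. *MVD* had the highest estimate of all 8 genes (0.33, SE 0.16, adjusted p = 0.12) at the lowest level. The *SMARCA1* siRNA A pair disagreed for *HMGCS1*, with 372 and 500 CPM, and for *MVD*, with 17.0 and 11.6 CPM. Without the second library of that pair, 5 of the 8 genes were called, *MVD*, *FDFT1*, *DHCR7* and *INSIG1* higher and *SREBF2* lower, and without the first 3 were called, where 53.9% and 48.1% of all genes were called in the same fits.

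The 2 knockdowns were also compared with each other. Of the 8 genes 5 were called between them, against 35.4% of all genes, with 4 lower in *SMARCA4* than in *SMARCA1* knockdown against 19.1% of all genes, and 1 higher against 16.3%. Both sets of 4 libraries were transfected with siRNA, and the 10 interferon response genes had 0 calls between them. The sets differed in both targets, since *SMARCA1* was above the controls in *SMARCA4* knockdown and below them in its own. The part of this in the differences was not tested. The median log2 difference was -0.15 for the 8 genes and -0.01 for all genes tested. The comparisons with the control share the same 2 control libraries, whereas this comparison uses the control only for the common estimate of spread.

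*DHCR7* had the widest difference. Its *SMARCA4* siRNA A libraries had 225 and 244 CPM and its *SMARCA4* siRNA B libraries 201 and 172 CPM, below all 4 *SMARCA1* knockdown libraries, of which the lowest had 248 CPM. The log2 difference was -0.43 (SE 0.08, adjusted p = 0.003), with means of 210 ± 30.7 and 281 ± 26.5 CPM (SD, n = 4 each). The call held with each library left out in turn and was lost only against *SMARCA4* siRNA A alone (-0.26, adjusted p = 0.072). For *INSIG1*, the *SMARCA4* siRNA A libraries had 349 and 377 CPM and the siRNA B libraries 270 and 229 CPM. Its difference from *SMARCA1* knockdown was -0.33 (SE 0.08, adjusted p = 0.012), but the libraries overlapped, because the siRNA A libraries lay among the *SMARCA1* libraries. The call was lost without the second *SMARCA4* siRNA B library (adjusted p = 0.064), without the second *SMARCA1* siRNA C library (adjusted p = 0.051), and with *SMARCA4* siRNA A alone (-0.06, adjusted p = 0.68) or *SMARCA1* siRNA A alone (-0.23, adjusted p = 0.11).

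*SREBF2* went the other way from its target *INSIG1*. It was at 377 to 393 CPM in the 4 *SMARCA4* libraries and at 292 to 359 CPM in the 4 *SMARCA1* libraries, with no overlap. The log2 difference was 0.24 (SE 0.07, adjusted p = 0.019). The call was lost without either *SMARCA1* siRNA C library (adjusted p = 0.083 and 0.071), without the second *SMARCA4* siRNA B library (adjusted p = 0.059), with *SMARCA4* siRNA B alone (0.22, adjusted p = 0.070) and with *SMARCA1* siRNA C alone (0.11, adjusted p = 0.38).

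*FDFT1* and *SQLE*, which act in sequence to make squalene and its epoxide, were each lower in *SMARCA4* knockdown by a log2 difference of 0.23. *FDFT1* (SE 0.07, adjusted p = 0.036) was at 188 to 212 CPM in *SMARCA4* and 218 to 244 CPM in *SMARCA1* libraries, without overlap. *SQLE* (SE 0.08, adjusted p = 0.044) was at 340 to 411 CPM and 367 to 477 CPM, with overlap. Both calls depended on single libraries: that of *FDFT1* was lost without any 1 of 8 libraries and that of *SQLE* without any 1 of 9. Each was also lost in 6 other alternatives, among them library totals alone (adjusted p = 0.058 for *FDFT1* and 0.064 for *SQLE*), no filter on low counts (0.14 and 0.11) and only the libraries compared (0.062 and 0.068). *HMGCS1* (-0.07), *MVD* (-0.07) and *LSS* (-0.08) were not called, and their intervals reached from -0.36 to 0.21 at the widest. With 1 library left out, the count of called genes ranged from 1, without the second *SMARCA1* siRNA C or the second *SMARCA4* siRNA B library, to 5, without the first *SMARCA1* siRNA A library. It was 2 without the first *SMARCA1* siRNA C library, 4 without the second *SMARCA1* siRNA A library and 3 without any other library, controls included.

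**Figure D2:**
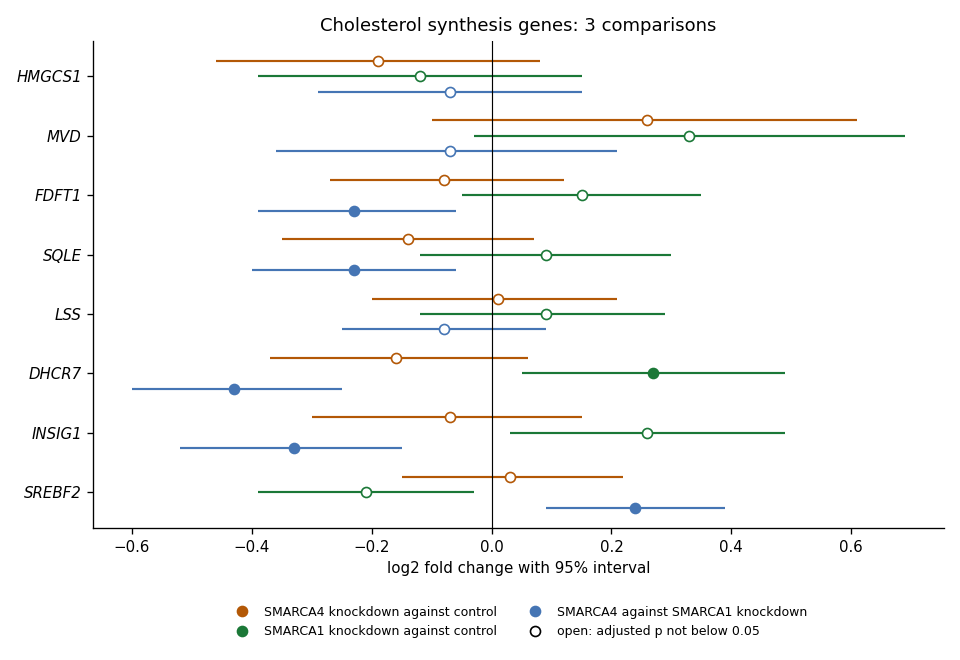
Log2 fold changes (points) with 95% intervals (lines) of the 8 genes in *SMARCA4* knockdown against control, *SMARCA1* knockdown against control and *SMARCA4* against *SMARCA1* knockdown; filled points have an adjusted p below 0.05. In the comparison of the knockdowns 5 points are filled, 4 of them below 0 and *SREBF2* above.

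Each siRNA was also compared with the control on its own. With *SMARCA4* siRNA A 0 of 8 genes were called against the control, where 33.2% of all genes were, and 0 passed an unadjusted p of 0.05 or were called by DESeq2. With siRNA B 3 were called, all lower, against 45.0% of all genes. These were *HMGCS1* (-0.38, SE 0.14, adjusted p = 0.0499), *INSIG1* (-0.34, SE 0.12, adjusted p = 0.036) and *DHCR7* (-0.32, SE 0.11, adjusted p = 0.042), and DESeq2 called the last 2. *HMGCS1* was at 395 and 396 CPM with siRNA B, below the 493 and 536 CPM with siRNA A and the 538 and 493 CPM of the controls. Tested directly, siRNA B and siRNA A differed in *INSIG1* (-0.54, SE 0.12, adjusted p = 0.028), 1 of 8 genes where 6.20% of all genes were called, and not in *HMGCS1* (-0.38, adjusted p = 0.13) or *DHCR7* (-0.33, adjusted p = 0.11). *SMARCA4* itself was lower with siRNA B than with siRNA A (-0.60, SE 0.15, adjusted p = 0.048), and the part of this in the difference was not tested.

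With *SMARCA1* siRNA A 1 of 8 genes was called, *SREBF2* (-0.35, SE 0.10, adjusted p = 0.019), where 34.8% of all genes were. With siRNA C 3 were called, all higher, where 45.3% of all genes were, namely *MVD* (0.49, SE 0.18, adjusted p = 0.049), *DHCR7* (0.38, SE 0.11, adjusted p = 0.021) and *INSIG1* (0.36, SE 0.12, adjusted p = 0.029). *MVD* was at 18.0 and 18.1 CPM with siRNA C, against 11.8 and 13.9 CPM in the controls. Between siRNA C and siRNA A 0 of 8 genes were called by edgeR and 0 by DESeq2, 2 passed an unadjusted p of 0.05 (*SQLE* and *SREBF2*), and only 0.0118% of all genes were called, so the siRNAs were not shown to differ. The interval of the difference in *SREBF2* was 0.07 to 0.49 on the log2 scale.

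*FDFT1*, *SQLE*, *LSS*, *DHCR7* and *INSIG1* varied together across libraries, while *SREBF2* and *MVD* followed the others less closely and *HMGCS1* followed only some of them. Over the 10 libraries, Pearson's r of log2 CPM was 0.91 between *DHCR7* and *FDFT1*, 0.90 between *DHCR7* and *INSIG1* and 0.88 between *INSIG1* and *SQLE*. It was at least 0.5 in 15 of 28 pairs and below 0 in 5, and *SREBF2* was in all 5 (lowest -0.59, with *FDFT1*). Of the 21 pairs without *SREBF2*, 6 were below 0.5, each with *HMGCS1* or *MVD* in it, and these 2 genes had r = 0.01 with each other. *HMGCS1* had r = 0.79 with *SQLE*, 0.67 with *INSIG1* and 0.55 with *LSS*, but 0.42 with *DHCR7* and 0.3 with *FDFT1*. These are descriptions over libraries that share siRNAs and controls. The mean of the genes' standardized log2 CPM was highest in *SMARCA1* siRNA C (0.99 and 0.83) and lowest in *SMARCA4* siRNA B (-0.90 and -1.17), with the controls at -0.14 and -0.06. The summed CPM of the interferon response genes was 34880 and 35140 in those *SMARCA1* siRNA C libraries and 34670 and 28760 in those *SMARCA4* siRNA B libraries. It was 26070 and 12520 in the *SMARCA4* siRNA A and 19950 and 17990 in the *SMARCA1* siRNA A libraries. The part of the interferon response in this mean was not tested. Among 13638 other genes, the 5 whose log2 CPM followed that mean most closely were *CCAR1* (r = 0.959), *ACLY* (0.925), *INTS3* (0.913), *SCIN* (0.901) and *PIR* (0.899), over 10 libraries. *ACLY* encodes ATP citrate lyase, which supplies acetyl-CoA, and it ranged from 340 to 443 CPM.

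Among the 21 listed enzymes of sterol synthesis, which include 6 of the 8 genes, genes were called in both directions. In *SMARCA4* knockdown 1 was higher and 3 lower, against 22.8% and 22.3% of all genes, with a median log2 fold change of -0.08. *SC5D*, a sterol desaturase, rose from 404 and 316 CPM in the controls to 474 to 662 CPM (0.65, SE 0.15, adjusted p = 0.006). *FDPS*, farnesyl diphosphate synthase, fell by 0.62 on the log2 scale (SE 0.12, adjusted p = 0.0023), and *LBR*, the lamin B receptor that is also a sterol reductase, fell by 0.83 (SE 0.15, adjusted p = 0.0017). *PMVK*, phosphomevalonate kinase, fell by 0.49 (SE 0.14, adjusted p = 0.017). *LBR* was not called with siRNA A alone (-0.48, adjusted p = 0.065), nor *PMVK* with siRNA B alone (-0.42, adjusted p = 0.064). Without the second control library the count of called enzymes was 2, and over all libraries left out in turn it was 2 to 6.

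In *SMARCA1* knockdown 3 of the 21 enzymes were higher and 2 lower, against 23.8% and 23.0% of all genes, with a median of 0.09. *NSDHL*, a sterol dehydrogenase of the later steps, rose by a log2 fold change of 0.40 (SE 0.12, adjusted p = 0.019), beside *DHCR7*. *LBR* fell here too (-0.58, SE 0.15, adjusted p = 0.012). The count of called enzymes was 1 without the first control library, 3 without the first *SMARCA1* siRNA C library, and 9 and 11 without the first or second *SMARCA1* siRNA A library.

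Between the knockdowns 2 of the 21 enzymes were higher and 8 lower in *SMARCA4* knockdown, against 16.3% and 19.1% of all genes, with a median of -0.23 against -0.01 for all genes. *SC5D* was among the higher ones (0.79, SE 0.12, adjusted p = 0.0011). *FDPS* (-0.47, SE 0.10, adjusted p = 0.0057) was among the lower ones, with *ACAT2*, *NSDHL*, *EBP*, *FDFT1*, *SQLE* and *DHCR7*. The count was 7 to 12 with 1 library left out, and 3 against *SMARCA4* siRNA A alone.

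**Figure D3:**
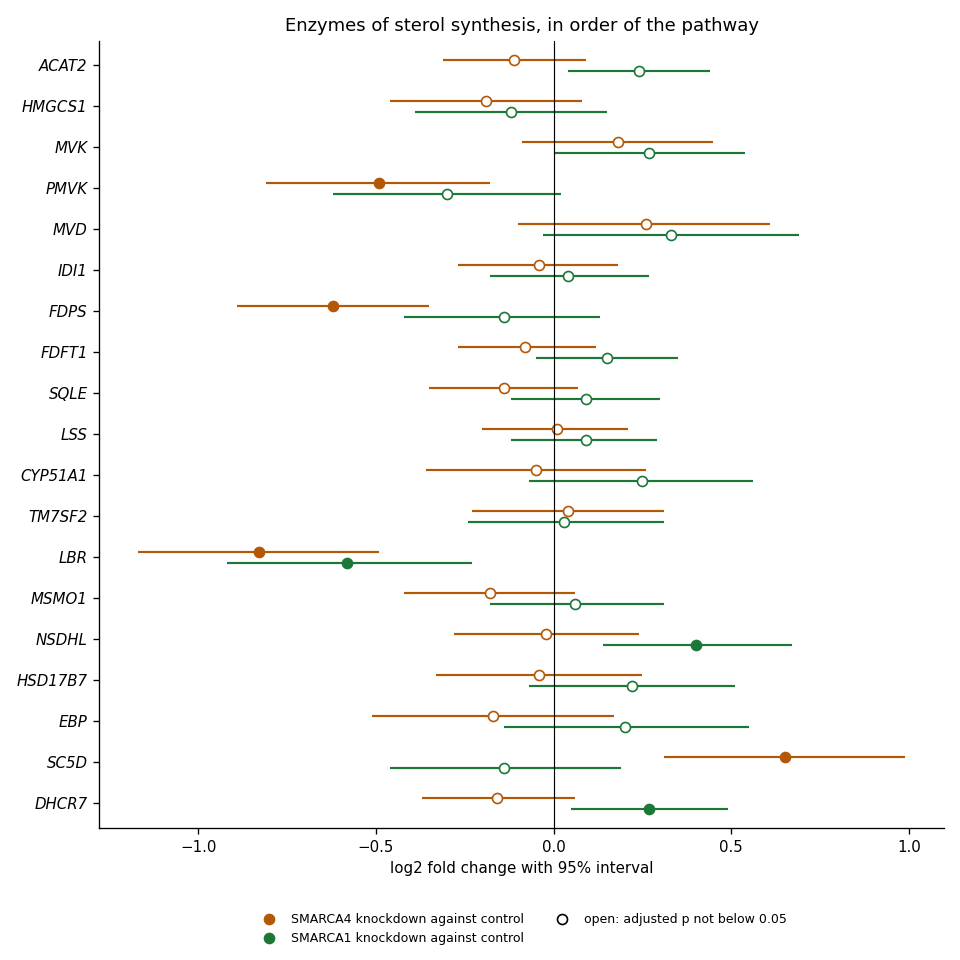
Log2 fold changes with 95% intervals of the listed enzymes of sterol synthesis that are reported here, from the first step (top) to the last (bottom), in each knockdown against control; filled points have an adjusted p below 0.05. *LBR* was lower in both knockdowns, *FDPS* and *PMVK* lower and *SC5D* higher in *SMARCA4* knockdown, and *NSDHL* and *DHCR7* higher in *SMARCA1* knockdown.

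Of the 12 listed genes of sterol sensing and SREBP processing, 1 was higher and 4 lower in *SMARCA4* knockdown and 2 higher and 3 lower in *SMARCA1* knockdown. These 5 of 12 in each were near the 45.1% and 46.8% of all genes called. By direction, 22.8% and 23.8% of all genes were higher and 22.3% and 23.0% lower. *SPRING1*, a partner of site-1 protease, was at 91.3 and 84.6 CPM in the controls and lower in all 8 knockdown libraries, with log2 fold changes of -0.84 (SE 0.10, adjusted p = 0.00015) and -0.53 (SE 0.10, adjusted p = 0.0023). *MBTPS1*, site-1 protease itself, fell in *SMARCA1* knockdown from 133 and 132 CPM to 70.4 to 78.6 CPM (-0.80, SE 0.09, adjusted p = 0.00011) and was at 122 to 137 CPM in *SMARCA4* knockdown (-0.06, adjusted p = 0.61), and the difference between the knockdowns was 0.74 (SE 0.07, adjusted p = 0.00013). *SCAP*, the escort of SREBP, rose in *SMARCA1* knockdown (0.31, SE 0.11, adjusted p = 0.038), as did *INSIG2* (0.33, SE 0.11, adjusted p = 0.034). *SCAP* was not called with *SMARCA1* siRNA C alone (0.20, adjusted p = 0.21), nor *INSIG2* with *SMARCA1* siRNA A alone (0.27, adjusted p = 0.12). In *SMARCA4* knockdown *SCAP* was at -0.01 (adjusted p = 0.96) and *INSIG2* at 0.21 (adjusted p = 0.15), while *UBE2G2*, a ubiquitin-conjugating enzyme, fell by 0.39 (SE 0.08, adjusted p = 0.0036). *SREBF1*, which encodes SREBP1, was not called in either knockdown (-0.09, adjusted p = 0.49, and -0.08, adjusted p = 0.53). The other called genes of this list that are reported here, named after their values were seen, were *RNF145* and *MBTPS2* in *SMARCA4* and *MBTPS2* in *SMARCA1* knockdown.

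Of the 15 listed genes of uptake and intracellular transport, 7 were higher and 2 lower in *SMARCA4* knockdown and 6 higher and 1 lower in *SMARCA1* knockdown, with medians of 0.27 and 0.26 on the log2 scale. These 9 and 7 called genes of 15 stand against 45.1% and 46.8% of all genes, so that the count called in either direction in *SMARCA1* knockdown was at the share of all genes. By direction, the 7 and 6 higher genes of 15 stand against 22.8% and 23.8% of all genes. The 2 and 1 lower genes stand against 22.3% and 23.0%. With 1 library left out, the counts called were 6 to 10 and 4 to 10, with 4 in *SMARCA1* knockdown without the first control library.

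Among the genes higher in both were 2 of the lysosome, where cholesterol from lipoproteins is freed. *LIPA*, the lysosomal acid lipase, rose on the log2 scale by 0.94 (SE 0.13, adjusted p = 0.00038) and 0.75 (SE 0.13, adjusted p = 0.0014), and *NPC1*, which exports cholesterol, by 0.69 in each (SE 0.13, adjusted p = 0.0023 and 0.0024). *LIPA* rose more with *SMARCA4* siRNA B (1.37) than with siRNA A (0.51), a difference of 0.85 (SE 0.15, adjusted p = 0.015). *NPC2*, also of the lysosome, was not called in *SMARCA4* knockdown (-0.03, adjusted p = 0.79). In *SMARCA1* knockdown *NPC2* was higher (0.26, SE 0.09, adjusted p = 0.038), but not called with siRNA C alone (0.20, adjusted p = 0.14). *LRP8*, a receptor for apolipoprotein E, fell from 18.7 and 18.7 CPM to 4.63 to 6.67 CPM in *SMARCA4* (-1.80, SE 0.15, adjusted p = 2.1e-05) and to 4.95 to 7.62 CPM in *SMARCA1* knockdown (-1.48, SE 0.15, adjusted p = 8.7e-05). *SCARB1*, the HDL receptor, fell in *SMARCA4* knockdown from 220 and 237 CPM to 102 to 135 CPM (-0.96, SE 0.09, adjusted p = 3.6e-05). In *SMARCA1* knockdown *SCARB1* was at 190 to 214 CPM (-0.19, adjusted p = 0.12), and the knockdowns differed by -0.77 (SE 0.08, adjusted p = 0.00014).

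**Figure D4:**
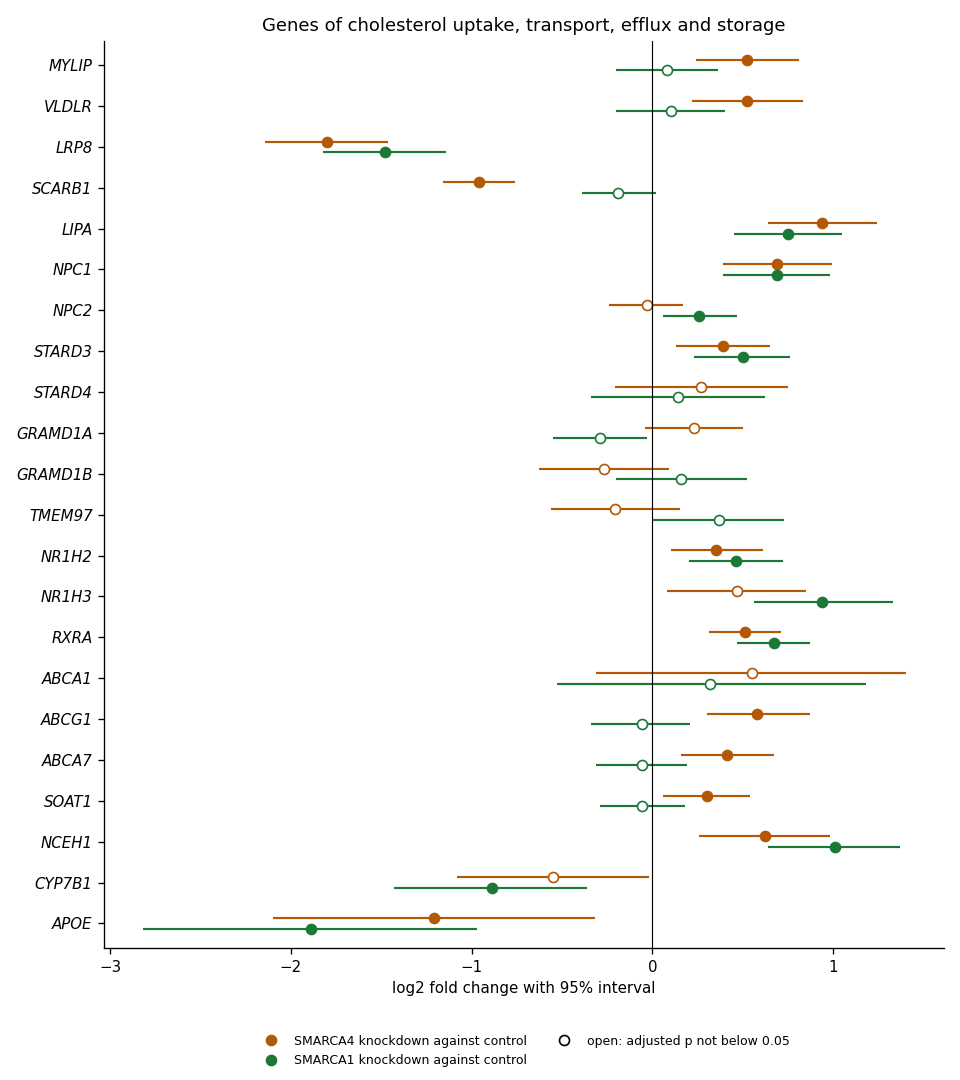
Log2 fold changes with 95% intervals of the genes reported here of uptake and intracellular transport (from *MYLIP* to *TMEM97*) and of efflux, storage and oxysterols (from *NR1H2* to *APOE*) in each knockdown against control; filled points have an adjusted p below 0.05, and *CH25H*, at 1 and 2 counts in the controls, is left out. *LIPA*, *NPC1* and *STARD3* were higher and *LRP8* lower in both knockdowns.

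Of the 13 listed genes of efflux, storage and oxysterols 11 were tested, and 7 were higher and 1 lower in *SMARCA4* and 5 higher and 2 lower in *SMARCA1* knockdown, where 45.1% and 46.8% of all genes were called. By direction, 22.8% and 23.8% of all genes were higher and 22.3% and 23.0% lower. *CH25H*, which makes 25-hydroxycholesterol and is known to be induced by interferon, had 2 counts and 1 count in the controls, 21 to 109 counts in *SMARCA4* and 20 to 79 counts in *SMARCA1* libraries. The ratio of pooled counts per total was 34.9 (95% counting interval 11.8 to 170) and 29.6 (10 to 145), by the exact Clopper-Pearson method, and covers counting error only. *NCEH1*, a cholesteryl ester hydrolase, rose on the log2 scale by 0.62 (SE 0.16, adjusted p = 0.010) and 1.01 (SE 0.16, adjusted p = 0.00089). With *SMARCA4* siRNA A alone *NCEH1* was not called (0.37, adjusted p = 0.145). *NR1H3*, which encodes the oxysterol receptor LXR alpha, rose in *SMARCA1* knockdown (0.94, SE 0.17, adjusted p = 0.0017) from 1.72 and 1.82 CPM to 3.17 to 3.54 CPM, and was at 0.47 (adjusted p = 0.051) in *SMARCA4* knockdown. *APOE*, apolipoprotein E, was lower in both at low levels (-1.21, adjusted p = 0.032, and -1.89, adjusted p = 0.0044), with control libraries at 2.22 and 5.28 CPM. In *SMARCA4* knockdown this was the fall with siRNA A (-1.88, adjusted p = 0.017). With siRNA B *APOE* was not called (-0.54, adjusted p = 0.36), and its libraries at 1.45 and 3.75 CPM overlapped the controls. *CYP7B1*, an oxysterol hydroxylase, fell in *SMARCA1* knockdown (-0.89, SE 0.24, adjusted p = 0.012) and was at -0.55 (adjusted p = 0.085) in *SMARCA4* knockdown.

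Fatty acid synthesis, the other branch of lipid synthesis under SREBP control, had 1 of 9 listed genes higher and 5 lower in *SMARCA4* and 1 higher and 4 lower in *SMARCA1* knockdown, again against 45.1% and 46.8% of all genes called. By direction, 22.8% and 23.8% of all genes were higher and 22.3% and 23.0% lower. *SCD*, the desaturase of stearic acid, fell by 1.11 on the log2 scale (SE 0.13, adjusted p = 0.00014) and fell by 0.80 (SE 0.13, adjusted p = 0.00097). *FASN* was not called in either knockdown (0.01, adjusted p = 0.94, and 0.21, adjusted p = 0.079). *SCD* and *FASN* were named after their values were seen.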

How the data were processed

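RNA-seq of VCaP cells was analysed for 10 libraries grouped by the labels. The authors prepared directional libraries from polyadenylated RNA, aligned trimmed paired-end reads to GRCh38 with HISAT2 2.1.0 and counted them per gene with featureCounts 1.5.2 on GENCODE annotations, and deposited raw counts for 59386 genes. The strand setting of the counting is not given in the sources used here. Genes listed on the opposite strand of *HMGCS1*, *FDFT1*, *LSS* and *SREBF2* had at most 50 counts. The 8 genes and the 8 lists around them were chosen with earlier results of these data known.

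Counts were filtered with filterByExpr (minimum count 10, minimum total count 15), TMM-normalized and fitted as 5 groups with edgeR 4.0.16 (glmQLFit, glmQLFTest) in R 4.3.3, with Benjamini-Hochberg adjustment over 16899 genes and calls at an adjusted p below 0.05. A knockdown is the mean of its 2 siRNA groups. Intervals are at 95%. Total counts were 23898545 to 34667965 per library. Counts were also simulated for *SMARCA4* knockdown against control over 16426 genes. There, 100 of 100 genes shifted by 1 on the log2 scale and 100 of 100 shifted by 2 were recovered, with 6 unchanged genes called. Simulated counts had the same spread for every gene and no difference between siRNAs, and only genes above a set mean count were shifted. The real pairs of libraries differed unequally, with chi-square per gene from 3.8 to 60.6. These recoveries and false calls therefore describe the simulated setting only. Shifts below 1 were not simulated. The estimates of the cholesterol synthesis genes in that comparison were smaller, from -0.19 for *HMGCS1* to 0.26 for *MVD*. The simulation therefore cannot show how often changes of that size would be called. Motifs were searched in RefSeq promoters of GRCh38.p14, and exon lengths came from a GENCODE annotation of GRCh38.

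The genes named are the 8, both targets, *SREBF1*, *SCAP* and *INSIG2*, and, of the first 4 lists, the 5 highest and 5 lowest that were called, one way, in a knockdown and under both siRNAs, plus the 5 genes most alike in profile. Some listed genes entered the fits and counts but are not reported here by name or value. Any other gene was named with its values already known. The alternatives were DESeq2 1.42.0, other normalizations and filters, the replicate number as a block, only the libraries compared, each siRNA alone and each library left out.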

Additional observations from a re-analysis of the deposited data

Results flagged for a closer look

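Between the knockdowns, 5 of the 8 genes differed by the test of the difference itself, where 35.4% of all genes tested did. Of these calls only that of *DHCR7* held with each library left out in turn. Those of *INSIG1*, *SREBF2*, *FDFT1* and *SQLE* depended on single libraries, as given above. The log2 difference, *SMARCA4* minus *SMARCA1* knockdown, was -0.43 for *DHCR7*, -0.33 for *INSIG1*, -0.23 for *FDFT1*, -0.23 for *SQLE* and 0.24 for *SREBF2*. The siRNAs against *SMARCA4* differed from each other in *INSIG1*, by -0.54 for siRNA B minus siRNA A, where 6.20% of all genes tested were called. In the *SMARCA1* knockdown group, the second siRNA A library had 11.6 CPM of *MVD*, far from the other 3 libraries at 17.0 to 18.1 CPM, a gap wider than Dixon's 95% critical value allows. Chance marks about 1 in 20 groups, and 16 groups of 4 libraries were examined.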

How the results depend on the processing

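The count of the 8 genes called in *SMARCA4* knockdown was 3 with siRNA B alone and 0 to 1 with a library left out. In *SMARCA1* knockdown it was 0 with no filter on low counts, 0 with the replicate number as a block, 3 with a filter of at least 1 CPM in at least 2 libraries, 3 with siRNA C alone and 0 to 5 with a library left out. Between the knockdowns it was 3 under library totals alone, 3 with no filter, 3 with only the libraries compared, 1 with *SMARCA4* siRNA A alone, 2 with *SMARCA1* siRNA A alone, 3 with *SMARCA1* siRNA C alone and 1 to 5 with a library left out. The count of sterol synthesis enzymes called was 2 to 6, 1 to 11 and 7 to 12 with a library left out in the 3 comparisons, and 3 between the knockdowns with *SMARCA4* siRNA A alone. Uptake and transport genes, an alternative added after the data were seen, gave 6 to 10 and 4 to 10. The cause of these changes was not tested.

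Estimates that changed sign were all of genes not called. In *SMARCA4* knockdown, *LSS* was at -0.03 and *SREBF2* at -0.00 under upper quartile scaling, *DHCR7* at 0.01 and *INSIG1* at 0.20 with siRNA A alone, *LSS* at -0.12 with siRNA B alone, and with a library left out *INSIG1* ranged from -0.10 to 0.03, *FDFT1* from -0.09 to 0.01 and *LSS* from -0.02 to 0.11. In *SMARCA1* knockdown, *SQLE* was at -0.04 with siRNA A alone. Between the knockdowns, *HMGCS1* was at 0.12, *MVD* at 0.06 and *LSS* at 0.05 with *SMARCA4* siRNA A alone, *HMGCS1* at 0.05 and *MVD* at 0.09 with *SMARCA1* siRNA A alone, and with a library left out *MVD* ranged from -0.19 to 0.09 and *HMGCS1* from -0.16 to 0.05.

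Replicate numbers correlated across groups between -0.10 and 0.36, which does not show that they pair the libraries. With the replicate block 0, 0 and 5 of the 8 genes were called in the 3 comparisons, and *DHCR7* in *SMARCA1* knockdown had an adjusted p of 0.054. No scaling moved the median of all genes by over 0.1 on the log2 scale. With 2 libraries per siRNA and 2 controls, differences of the size seen here lie near the threshold.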
